A study of Mus musculus with 6 samples.

Results

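The genes described here encode receptors for cytokines and for the tumour necrosis factor (TNF) family in MIN6 cells, a mouse insulinoma line used as a stand-in for the pancreatic beta cell. Members were taken by gene symbol from the array's platform annotation, as interleukin receptor chains (Il followed by a number and r), interferon receptors (Ifnar, Ifngr), TNF receptor superfamily genes (Tnfrsf) and Il6st. This gave 60 of the 18193 genes that have a probe set annotated to a single symbol, read by 110 of 45037 probe sets. Each gene was read by the probe set that was brightest on average over the 6 arrays, and 33 of the 60 have further probe sets, which were checked for direction. A probe set shared by Tnfrsf22 and Tnfrsf23 was left out. The symbol rule also takes in Il1rn, which encodes a secreted antagonist and not a receptor.

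Cytokine receptors are built from chains, and a cell generally responds to a cytokine where the chains of its membrane complex are made together. Class I and class II chains have no kinase of their own and signal through bound Janus kinases (JAKs) to STAT transcription factors, whereas IL-1 and IL-17 receptors and the TNF receptor superfamily recruit adaptor proteins that lead to NF-kB or, for receptors with a death domain, to caspases. In the beta cell this machinery is known for the damage that IL-1 beta, interferon-gamma and TNF do together, and for responses to IL-6.

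The Hlxb9 siRNA group is MIN6 cells given an siRNA against Hlxb9 (symbol Mnx1, a homeobox transcription factor of beta cells and motor neurons), and the control group is MIN6 cells given a scrambled siRNA. Both were transfected by nucleofection plus a lipid reagent, and total RNA was taken after 72 hours from 3 transfections per group, independent ones by the study's design. RNA went on arrays only where the western blot showed Hlxb9 protein down by more than 75%, so the arrays were selected by that blot. The labels also call the samples sorted without naming a gate. Bulk RNA cannot tell fewer cells of a type from less RNA per cell. Transcripts were read on an Affymetrix 3' mouse array as log2 RMA signals. Mnx1 itself read 7.53, 7.41 and 7.28 log2 on the Hlxb9 siRNA arrays, against 7.82, 7.50 and 7.77 on the control siRNA arrays, a difference of -0.29 ± 0.13 log2 (SE) that did not pass (limma adjusted p = 0.659, exact two-sided permutation p = 0.2, the smallest possible being 0.1), and the groups overlapped.

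Array medians lay between 5.08 and 5.20 log2. Control replicate 3 stood apart: its correlation with every other array was at most 0.991, against up to 0.997 among the others, and the 3'-to-5' gap of its Gapdh control probe sets was 2.13 log2, where the other 5 arrays had 0.65 to 0.78. Values without it are given beside the results that it moved most. Beta cell markers were bright, with 6 of 6 measured (Ins2, Iapp, Pdx1, Nkx6-1, Slc2a2 and Chga) between 9.37 and 14.41 log2. Of 12 leukocyte markers, 2 were above the background defined below (Coro1a and Cd68), and Ptprc (CD45), the pan-leukocyte marker, averaged 3.19 after Hlxb9 siRNA and 3.09 after control siRNA. The leukocyte list averaged 4.21 to 4.27 on Hlxb9 siRNA arrays and 4.15 to 4.34 on control arrays. Cd68 differed by 0.54 log2, or 0.45 without control replicate 3. The macrophage receptor gene Csf1r, below background at a mean of 3.72 log2, differed by -0.36, with -0.21 and 0.06 on its other probe sets. Coro1a differed by 0.51 log2, or 0.28 without control replicate 3, with -0.04 and 0.25 on its other probe sets. Of 5 endothelial markers 0 were above background, and of 6 fibroblast markers 3. Of 7 markers of other pancreatic cells 4 were above it (Gcg, Sst, Ppy and Cela1). Sst averaged 13.1 log2 and Gcg 12.9, both brighter than the beta cell marker Pdx1 at 12.1. Ppy, pancreatic polypeptide, read 10.95, 10.76 and 8.55 log2 on the Hlxb9 siRNA arrays, against 9.86, 9.68 and 7.32 on the control siRNA arrays, with the arrays numbered 3 lowest in both groups. Its difference was 1.13 ± 0.81 log2 (SE) (limma adjusted p = 0.737), and within the pairs of equal number 1.08, 1.08 and 1.23. With equal numbers fitted as pairs the SE was 0.11 (limma adjusted p = 0.478). Without control replicate 3 the difference was 0.32, in a fit that keeps the low Hlxb9 siRNA replicate 3. The part of these markers in the receptor values was not tested.

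The deposited table holds no detection calls, so a background was set from 78 chemosensory receptor genes (olfactory, vomeronasal, taste and trace amine receptors), whose transcripts beta cells largely lack. The 95th percentile of their mean signals, 4.22 log2, was the threshold, and 4 of the 78 lay above it. By this measure 31 of the 60 receptor genes were above background, against 70.3% of all genes. Most members lay on the same side of the threshold on every array: 28 exceeded it on all 6 arrays, with means of 5.43 or more, 28 on none, with means of 4.08 or less, and 4 on some arrays. Just inside lay Il17rd (4.26) and Il21r (4.24), and just outside Il22ra1 (4.18) and Tnfrsf1b (4.08). The brightest chemosensory gene stood at 7.10 log2 and their 99th percentile at 5.38. Several receptor genes counted as above background were dimmer than that brightest gene, among them Il6ra (6.59) and Il15ra (5.83). Probe sets differ in how strongly they bind, so brightness ranks probe sets and not transcript amounts.

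**Figure D1:**
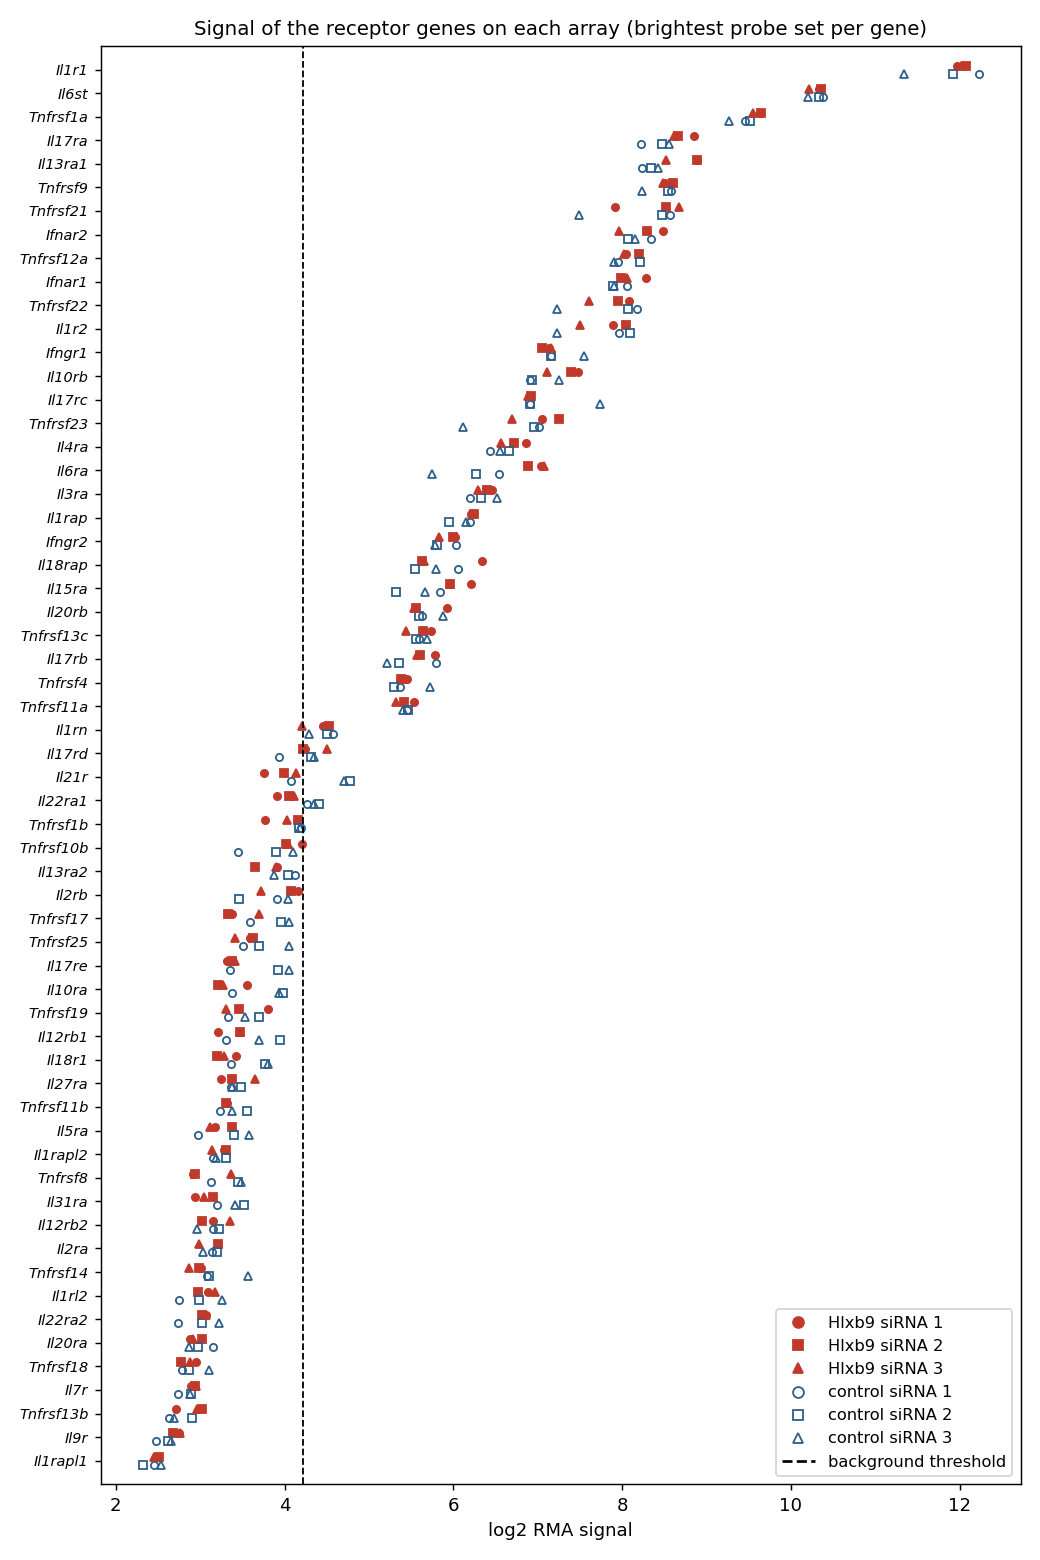
Log2 RMA signal (x axis) of the 60 receptor genes (rows, ordered by mean signal of the probe set), with a point for each array, Hlxb9 siRNA above control siRNA in each row, and the background threshold of 4.22 log2 as a dashed line. No member has a mean between 4.42 (Il1rn) and 5.43 (Tnfrsf11a), and in most rows the groups intermingle.

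Above background were 7 of 17 class I chains, 6 of 10 class II chains, 5 of 9 genes of the IL-1 receptor family, 4 of 5 IL-17 receptor genes and 9 of 19 TNF receptor superfamily genes. Il21r is counted among the class I chains only through its control arrays, with means of 3.96 log2 after Hlxb9 siRNA and 4.52 after control siRNA. Read by complexes, both chains were above background for the receptors of IL-1 (Il1r1, Il1rap), IL-6 (Il6ra, Il6st), type I interferon (Ifnar1, Ifnar2), interferon-gamma (Ifngr1, Ifngr2), IL-4 and IL-13 of type II (Il4ra, Il13ra1), IL-17A (Il17ra, Il17rc) and IL-25 (Il17ra, Il17rb). A single chain was above background for IL-10 (Il10rb without Il10ra), IL-22 (Il10rb without Il22ra1), IL-18 (Il18rap without Il18r1), the IL-20 receptors of type I (Il20rb without Il20ra) and type II (Il20rb without Il22ra1), IL-27 (Il6st without Il27ra) and IL-3 (Il3ra without Csf2rb). For IL-15, the high-affinity chain Il15ra was above background and the signalling chain Il2rb was not. Both measured chains were below for IL-2 (Il2ra, Il2rb), IL-12 (Il12rb1, Il12rb2), IL-31 (Il31ra, Osmr) and IL-5 (Il5ra, Csf2rb), and Il2rg was not analysed here. Among TNF receptors, Tnfrsf1a was above background and Tnfrsf1b was not.

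Against control siRNA, Hlxb9 siRNA left 0 of the 60 receptor genes past an adjusted p of 0.05 in limma, as it did 0% of all genes and of all probe sets. The smallest adjusted p among the members was 0.645. At an unadjusted limma p under 0.05 there were 8 of 60 members, 3 higher (Il6ra, Il13ra1, Il15ra) and 5 lower (Il21r, Il22ra1, Il31ra, Tnfrsf17, Il18r1), beside 7.95% of all genes (4.21% higher and 3.74% lower). All 3 Hlxb9 siRNA values lay outside the range of the controls in 12 members, 7 above and 5 below, beside 17.3% of all genes (9.55% above and 7.75% below). Within the 3 pairs of arrays of equal number, 22 of 60 members differed in one direction in every pair, beside 35.5% of all genes. In all, 35 members read higher and 25 read lower. Their median difference was 0.04 log2, beside a median of 0.0023 over all genes. After centring each array on its median the split of members was 28 higher and 32 lower, and the share of all genes that were higher was 38.4%, against 50.6% before. Weighting arrays by how well they fitted called 5 members (Il6ra, Il13ra1, Il15ra, Il21r and Il10ra) beside 2.5% of all genes at an adjusted limma p of 0.05, and 0 members when any 1 array was also left out.

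**Figure D2:**
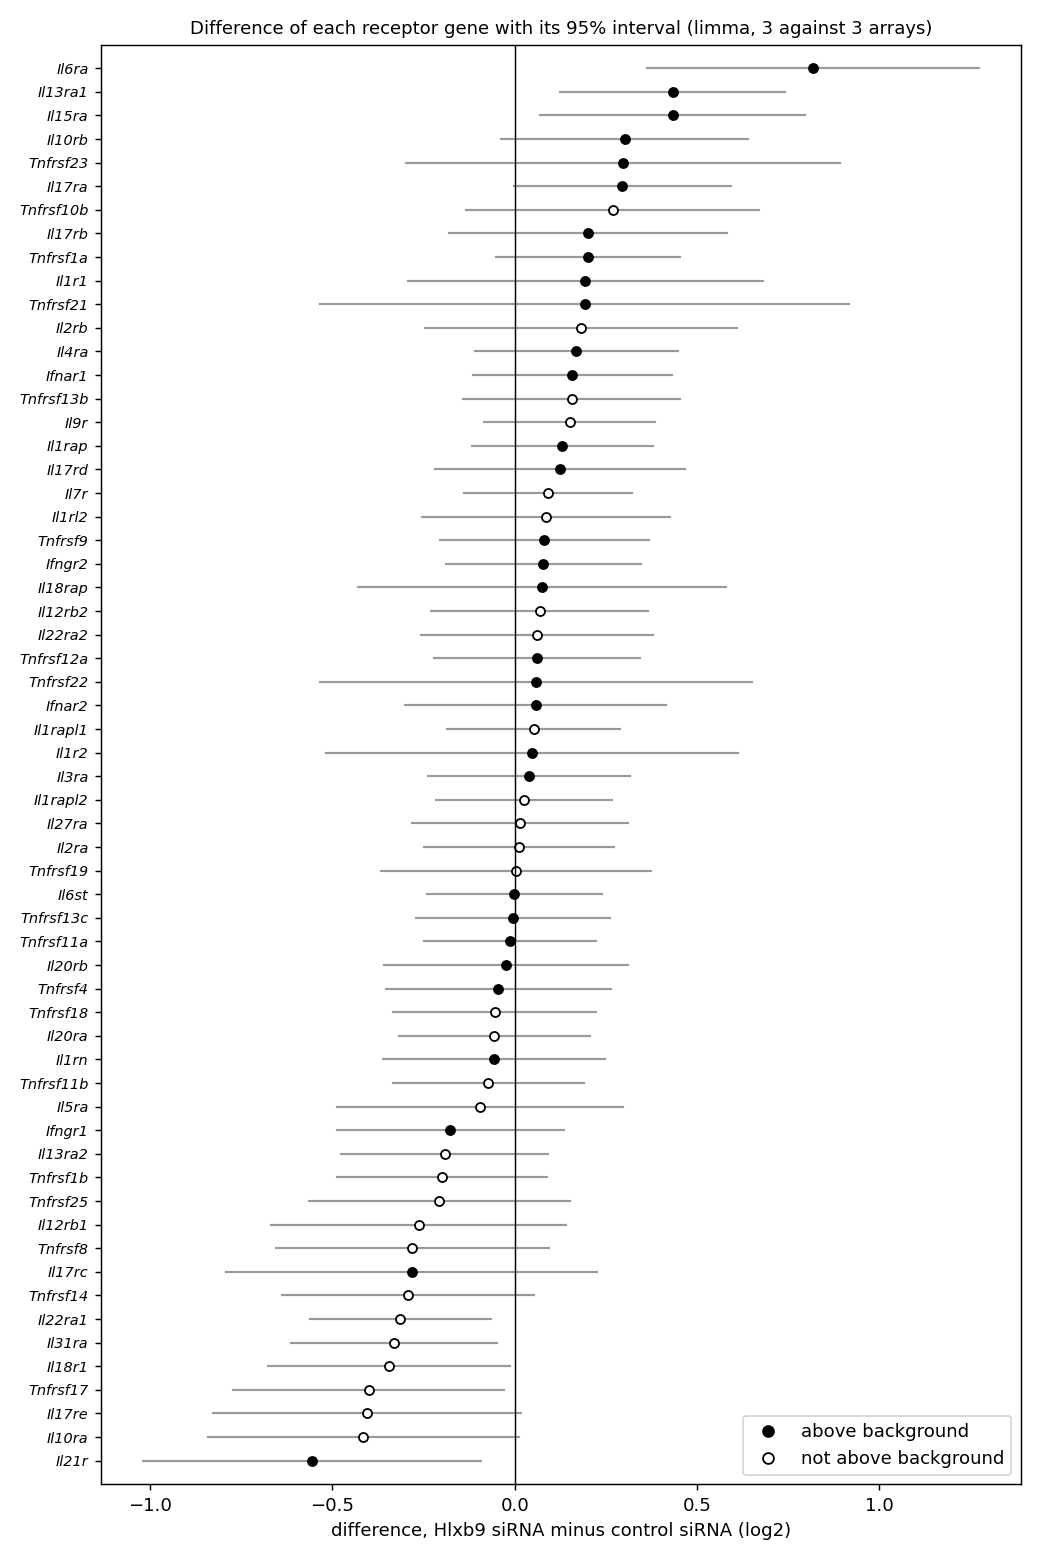
Difference of each receptor gene, Hlxb9 siRNA minus control siRNA in log2 (x axis), with limma's 95% interval from 3 against 3 arrays (bars). Filled points are above background. Intervals of 8 genes leave out 0, from Il6ra at 0.82 to Il21r at -0.56, and none passed after adjustment.

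Il6ra, the chain that binds IL-6 and hands it to the shared signal transducer gp130, had the largest difference and the smallest p of the members. It read 7.04, 6.89 and 7.08 log2 on the Hlxb9 siRNA arrays, against 6.54, 6.26 and 5.74 on the control siRNA arrays. Every Hlxb9 siRNA value exceeded every control value, and control replicate 3 was the lowest. The difference of 0.82 ± 0.20 log2 (SE), 1.76-fold, had a 95% interval of 0.36 to 1.27 log2 (limma adjusted p = 0.645). Within the pairs of equal replicate number it was 0.49, 0.63 and 1.33 log2. Without control replicate 3 it was 0.60 log2, and with each array left out in turn it lay between 0.60 and 0.998. The other probe set of Il6ra was below background, at a mean of 3.61 log2, and differed by 0.01. Il6st, which encodes gp130, read 10.34, 10.36 and 10.22 after Hlxb9 siRNA, against 10.38, 10.33 and 10.21 after control siRNA, a difference of -0.0011 ± 0.10 log2 (SE), with a 95% interval of -0.24 to 0.24. Of its other probe sets above background, the one at 8.68 log2 differed by -0.03, or -0.39 without control replicate 3. The one at 5.14 log2 differed by 0.57, with control replicate 3 its lowest array, and by 0.28 without that array.

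Il15ra, which binds IL-15 and presents it to neighbouring cells, read 6.21, 5.96 and 5.96 log2 on the Hlxb9 siRNA arrays, against 5.85, 5.32 and 5.66 on the control siRNA arrays. The groups did not overlap, with Hlxb9 siRNA replicates 2 and 3 at 5.96 and control replicate 1 at 5.85. The difference was 0.43 ± 0.16 log2 (SE), 1.35-fold (limma adjusted p = 0.645), and 0.46 without control replicate 3. Its other probe set, at a mean of 4.19 log2, lay just under the threshold. It read 4.95, 4.18 and 4.07 after Hlxb9 siRNA, against 4.08, 4.09 and 3.75 after control siRNA, and the groups overlapped. Its difference was 0.42 ± 0.23 log2 (SE), or 0.31 without control replicate 3, with Hlxb9 siRNA replicate 1 the single high array.

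Il13ra1, the chain shared by the IL-13 receptor and the type II IL-4 receptor, read 8.89, 8.89 and 8.52 log2 on the Hlxb9 siRNA arrays, against 8.23, 8.34 and 8.43 on the control siRNA arrays. All Hlxb9 siRNA arrays were above all controls, replicate 3 by the least. The difference was 0.43 ± 0.13 log2 (SE), 1.35-fold (limma adjusted p = 0.645), and 0.48 without control replicate 3. It has 5 probe sets: the other 3 above background differed by 0.40, 0.51 and 0.55, and the fifth, at background, by -0.02. The probe sets at 0.40 and 0.55 had control replicate 3 as their lowest array and stood at 0.17 and 0.14 without it, whereas the one at 0.51 stood at 0.56. Its partner Il4ra read 6.87, 6.72 and 6.56 after Hlxb9 siRNA, against 6.43, 6.65 and 6.55 after control siRNA, a difference of 0.17 ± 0.12 log2 (SE), and its dim other probe sets differed by -0.14 and -0.08.

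**Figure D3:**
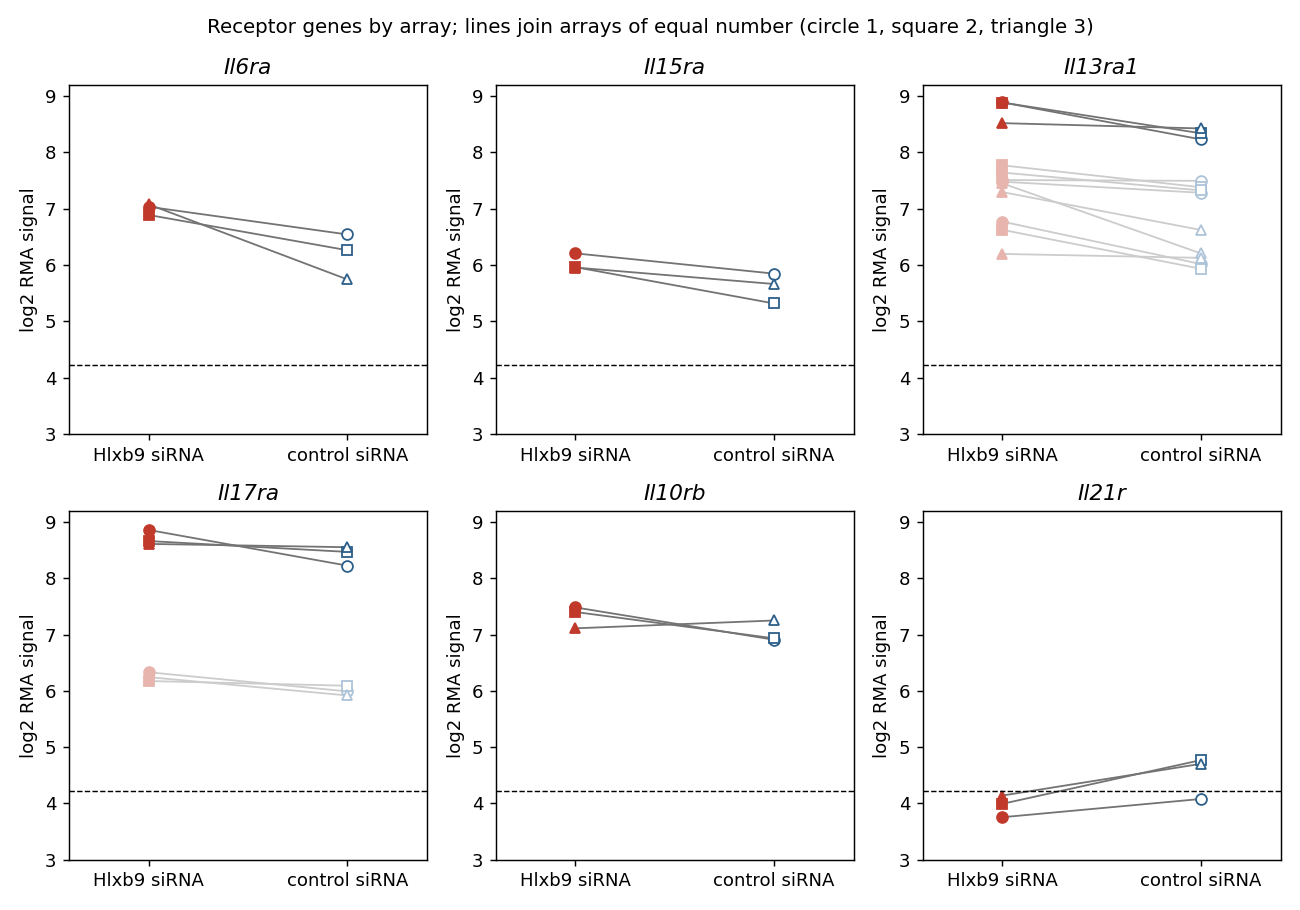
Log2 RMA signal (y axis) of 6 receptor genes on the Hlxb9 siRNA arrays (left, filled) and the control siRNA arrays (right, open). Lines join arrays of equal number, pale symbols are the gene's other probe sets above background, and the dashed line is the threshold of 4.22. Lines of Il6ra and Il15ra are all higher at the Hlxb9 siRNA end, the third pair of Il10rb is reversed, and Il21r straddles the threshold.

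Sequences upstream of these 3 genes are shown because they are the members with the highest differences. Each is the 250 bases before a RefSeq transcript start in GRCm38.p6, on the gene's strand, with CG pairs in capitals. Il6ra lies at chr3:89913197-89913446 on the minus strand, Il15ra at chr2:11705043-11705292 and chr2:11705462-11705711 and Il13ra1 at chrX:36111858-36112107, all on the plus strand.
Il6ra: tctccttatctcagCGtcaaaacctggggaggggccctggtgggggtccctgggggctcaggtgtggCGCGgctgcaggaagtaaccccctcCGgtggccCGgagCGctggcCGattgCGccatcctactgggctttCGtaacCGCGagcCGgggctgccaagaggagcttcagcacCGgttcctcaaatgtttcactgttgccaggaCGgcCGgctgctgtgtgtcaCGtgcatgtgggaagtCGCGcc
Il15ra (upstream start): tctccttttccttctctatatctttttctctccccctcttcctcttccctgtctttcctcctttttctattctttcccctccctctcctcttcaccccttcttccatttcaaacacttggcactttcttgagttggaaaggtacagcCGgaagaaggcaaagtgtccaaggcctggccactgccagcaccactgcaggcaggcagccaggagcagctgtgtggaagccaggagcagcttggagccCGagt
Il15ra (downstream start): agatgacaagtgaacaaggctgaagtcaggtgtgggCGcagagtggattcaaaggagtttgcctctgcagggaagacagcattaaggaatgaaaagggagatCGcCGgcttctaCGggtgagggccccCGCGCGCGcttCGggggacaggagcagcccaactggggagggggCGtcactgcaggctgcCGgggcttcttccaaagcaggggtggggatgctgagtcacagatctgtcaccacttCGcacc
Il13ra1: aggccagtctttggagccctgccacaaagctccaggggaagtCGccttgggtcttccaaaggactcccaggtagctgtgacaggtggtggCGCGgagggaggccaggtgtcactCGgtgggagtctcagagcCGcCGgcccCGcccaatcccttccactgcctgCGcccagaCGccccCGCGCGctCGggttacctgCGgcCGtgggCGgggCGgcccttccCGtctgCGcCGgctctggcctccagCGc
They hold 18, 2, 12 and 21 CG pairs, beside a median of 6 over 32851 RefSeq windows of this length. Windows were searched on both strands for the STAT motif TTCNNNGAA, found in 7.02% of all windows, the homeodomain motif TAATTA (4.84%), the core of the interferon-stimulated response element, a pair of GAAA runs spaced by 2 bases (2.98%) and the GC box GGGCGG (32.7%). None of these windows holds the STAT, homeodomain or interferon letters, and that of Il13ra1 holds 3 GC boxes, of which 2 share a base. Of 59 windows found for 50 of the 60 receptor genes, 11 (18.6%) hold the STAT letters, among them Tnfrsf1a, Tnfrsf9, Il1r2 and Ifnar2 above background, and 1 (Tnfrsf9) holds TAATTA.

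Of the other class I chains above background, Il3ra, the binding chain for IL-3, read 6.46, 6.40 and 6.30 after Hlxb9 siRNA, against 6.19, 6.33 and 6.52 after control siRNA, and the groups overlapped. Il21r, the IL-21 receptor of lymphocytes, read 3.75, 3.99 and 4.14 after Hlxb9 siRNA, against 4.08, 4.77 and 4.70 after control siRNA. It exceeded the threshold only on control replicates 2 and 3. The difference was -0.56 ± 0.20 log2 (SE) (limma adjusted p = 0.645), -0.46 without control replicate 3 and -0.21 with an offset of 32 on the linear scale, which damps dim values.

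None of the 4 interferon receptor genes passed the test (limma adjusted p of 0.745 or more). Ifnar1 and Ifnar2 form the receptor for type I interferons. Ifnar1 read 8.28, 7.99 and 8.06 log2 on the Hlxb9 siRNA arrays, against 8.06, 7.89 and 7.91 on the control siRNA arrays, and Ifnar2 8.49, 8.29 and 7.96 after Hlxb9 siRNA, against 8.34, 8.07 and 8.16 after control siRNA. Both ranges overlapped, with differences of 0.16 ± 0.12 log2 (SE) and 0.06 ± 0.15 log2 (SE). The other probe set of Ifnar1 differed by 0.29, or -0.02 without control replicate 3. Those of Ifnar2 lay near the threshold, at means of 4.37 and 4.17 log2, and differed by 0.17 and 0.31. The ligand-binding chain for interferon-gamma, Ifngr1, read 7.13, 7.05 and 7.16 after Hlxb9 siRNA, against 7.16, 7.16 and 7.55 after control siRNA. The highest Hlxb9 siRNA array only just lay below the lowest control, and the difference of -0.18 ± 0.13 log2 (SE) was -0.04 without control replicate 3. The second chain Ifngr2 read 6.02, 5.99 and 5.83 after Hlxb9 siRNA, against 6.03, 5.80 and 5.78 after control siRNA, with a difference of 0.08 log2 and -0.16 on its other probe set.

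Il10rb, an accessory chain shared by the receptors for IL-10, IL-22 and interferon-lambda, read 7.48, 7.40 and 7.11 log2 on the Hlxb9 siRNA arrays, against 6.91, 6.93 and 7.25 on the control siRNA arrays. Control replicate 3 lay above Hlxb9 siRNA replicate 3, so the groups overlapped. The difference was 0.30 ± 0.15 log2 (SE) (limma adjusted p = 0.667) and 0.41 without control replicate 3. Il20rb, a chain for IL-20 family cytokines, read 5.93, 5.56 and 5.53 after Hlxb9 siRNA, against 5.63, 5.59 and 5.87 after control siRNA, a difference of -0.02 log2.

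In the IL-1 family, the signalling receptor Il1r1 read 11.97, 12.08 and 12.02 log2 on the Hlxb9 siRNA arrays, against 12.23, 11.92 and 11.34 on the control siRNA arrays. The Hlxb9 siRNA values lay close together, with controls on both sides of them. The difference of 0.19 ± 0.21 log2 (SE) became -0.05 without control replicate 3. The decoy receptor Il1r2, which binds IL-1 without signalling, read 7.89, 8.04 and 7.51 after Hlxb9 siRNA, against 7.97, 8.10 and 7.23 after control siRNA. Both arrays numbered 3 were the lowest of their group, and the difference of 0.05 log2 became -0.22 without control replicate 3. The accessory chain Il1rap read 6.21, 6.24 and 6.23 after Hlxb9 siRNA, against 6.20, 5.95 and 6.15 after control siRNA. All Hlxb9 siRNA values were above the controls, by very little at the nearest pair, with a difference of 0.13 ± 0.11 log2 (SE). Groups overlapped on its other 4 probe sets. Of these, the one above background, at a mean of 5.89 log2, differed by 0.14. The rest were below background, at means of 2.79 to 2.96 log2, and differed by 0.07 to 0.21. Il18rap, the accessory chain for IL-18, read 6.34, 5.63 and 5.65 after Hlxb9 siRNA, against 6.05, 5.55 and 5.79 after control siRNA, with the arrays numbered 1 highest in both groups. Il1rn, the antagonist, read 4.46, 4.53 and 4.20 after Hlxb9 siRNA, against 4.57, 4.50 and 4.29 after control siRNA, close to the threshold, and differed by -0.06 log2.

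Il17ra, the common chain of IL-17 receptors, read 8.86, 8.66 and 8.61 log2 on the Hlxb9 siRNA arrays, against 8.22, 8.47 and 8.55 on the control siRNA arrays. The groups did not overlap, and the difference was 0.30 ± 0.13 log2 (SE) (limma adjusted p = 0.653), or 0.36 without control replicate 3. Its other probe set, at a mean of 6.12 log2, also had all Hlxb9 siRNA arrays above all controls and differed by 0.25. Of its partner chains, Il17rc read 6.90, 6.92 and 6.88 after Hlxb9 siRNA, against 6.91, 6.90 and 7.74 after control siRNA. Control replicate 3 was the single high array there, and the difference of -0.28 log2 became -0.0052 without it. Il17rb, the chain for IL-25, read 5.79, 5.61 and 5.57 after Hlxb9 siRNA, against 5.80, 5.35 and 5.21 after control siRNA, overlapping, with a difference of 0.20 ± 0.16 log2 (SE), or 0.08 without control replicate 3. Il17rd, known as an inhibitor of FGF signalling, read 4.25, 4.22 and 4.50 after Hlxb9 siRNA, against 3.93, 4.32 and 4.35 after control siRNA, around the threshold.

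In the TNF receptor superfamily the death-domain receptor for TNF, Tnfrsf1a, read 9.64, 9.65 and 9.55 log2 on the Hlxb9 siRNA arrays, against 9.46, 9.51 and 9.26 on the control siRNA arrays. All Hlxb9 siRNA values lay above all controls, and the difference was 0.20 ± 0.11 log2 (SE) (limma adjusted p = 0.684), or 0.13 without control replicate 3. Tnfrsf21, the death receptor known as DR6, read 7.91, 8.52 and 8.67 after Hlxb9 siRNA, against 8.57, 8.47 and 7.49 after control siRNA. Control replicate 3 and Hlxb9 siRNA replicate 1 were the low arrays, and the difference of 0.19 log2 became -0.15 without control replicate 3. Tnfrsf22 and Tnfrsf23 encode decoy receptors for TRAIL in the mouse. Tnfrsf22 read 8.08, 7.95 and 7.61 after Hlxb9 siRNA, against 8.17, 8.07 and 7.23 after control siRNA, and Tnfrsf23 7.05, 7.25 and 6.69 after Hlxb9 siRNA, against 7.02, 6.96 and 6.12 after control siRNA. Both arrays numbered 3 were the lowest of their group for both genes, and the differences of 0.06 and 0.30 log2 became -0.24 and 0.0056 without control replicate 3. That fit keeps the low Hlxb9 siRNA replicate 3 without its partner of equal number. Within the pairs of equal number Tnfrsf22 differed by -0.09, -0.11 and 0.38 log2, and Tnfrsf23 by 0.03, 0.29 and 0.58. Other Tnfrsf22 probe sets differed by 0.34 and 0.31. The genes are closely alike, so their probe sets may read each other's transcripts.

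Tnfrsf12a, the TWEAK receptor Fn14, read 8.04, 8.20 and 8.02 after Hlxb9 siRNA, against 7.96, 8.22 and 7.91 after control siRNA, and its second probe set differed by 0.05 log2 beside 0.06. Tnfrsf9, the costimulatory receptor 4-1BB of T cells, read 8.51, 8.60 and 8.49 after Hlxb9 siRNA, against 8.58, 8.54 and 8.23 after control siRNA. Tnfrsf13c, the BAFF receptor of B cells, read 5.74, 5.64 and 5.44 after Hlxb9 siRNA, against 5.59, 5.56 and 5.68 after control siRNA. Tnfrsf4, known as OX40 on T cells, read 5.45, 5.38 and 5.41 after Hlxb9 siRNA, against 5.37, 5.29 and 5.72 after control siRNA, and Tnfrsf11a, the RANK receptor of osteoclast precursors, 5.53, 5.41 and 5.33 after Hlxb9 siRNA, against 5.45, 5.46 and 5.40 after control siRNA. Groups overlapped for all 5 of these, with differences from -0.04 to 0.08 log2. A second Tnfrsf9 probe set above background, at 4.69 log2, differed by 0.0024.

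Among the 29 members not above background, 4 had an unadjusted limma p under 0.05, all lower. Of the 5395 genes of all kinds not above background, 289 (5.36%) had one, 72 higher and 217 lower. Il22ra1, the binding chain for IL-22, read 3.90, 4.06 and 4.12 log2 on the Hlxb9 siRNA arrays, against 4.26, 4.41 and 4.35 on the control siRNA arrays. It was above the threshold on the 3 control arrays alone, and the difference was -0.31 ± 0.11 log2 (SE) (limma adjusted p = 0.645). Il31ra, the binding chain for IL-31, read 2.93, 3.15 and 3.04 after Hlxb9 siRNA, against 3.20, 3.51 and 3.41 after control siRNA. Tnfrsf17, the plasma cell receptor BCMA, read 3.38, 3.32 and 3.69 after Hlxb9 siRNA, against 3.59, 3.96 and 4.05 after control siRNA. Il18r1, the binding chain for IL-18, read 3.42, 3.20 and 3.29 after Hlxb9 siRNA, against 3.37, 3.77 and 3.81 after control siRNA. Of these 4, only Il22ra1 and Il31ra had groups that did not overlap. With the offset of 32 the 4 differences lay between -0.115 and -0.075 log2. Tnfrsf1b, the second TNF receptor, stood just under the threshold at 3.77, 4.16 and 4.03 after Hlxb9 siRNA, against 4.20, 4.17 and 4.18 after control siRNA. All its Hlxb9 siRNA values lay below all controls, narrowly at the nearest, and the arrays were lower by 0.20 log2 on average. The 29 differences ranged from -0.42 to 0.27 log2, with 13 higher and 16 lower around a median of -0.06, beside -0.05 for all genes not above background. Groups did not overlap in 5 of the 29, 4 lower and 1 higher, beside 11.5% of all genes not above background.

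Partners of the receptors were read from lists of signalling genes, and 0 passed limma's adjusted p of 0.05. Of 10 measured JAK and STAT genes, 6 read higher and 4 read lower, with a median of 0.06 log2 and 0 at an unadjusted p under 0.05, and 8 were above background. Jak1, which serves most class I and class II receptors, differed by 0.06 ± 0.15 log2 (SE), or 0.22 without control replicate 3, and Stat3, the main target of gp130, by -0.19 ± 0.12 log2 (SE), each with other probe sets in both directions. With each array left out in turn, Jak3, below background, lay between 0.09 and 0.19 log2, and Stat5b between -0.28 and -0.07. Of 15 brakes on cytokine signalling, 7 read higher and 8 read lower, with a median of -0.03. Socs1, an inhibitor of JAKs, read 4.05, 3.95 and 4.06 log2 on the Hlxb9 siRNA arrays, against 4.51, 4.37 and 4.71 on the control siRNA arrays. Its groups did not overlap, and the difference was -0.51 ± 0.12 log2 (SE) (limma adjusted p = 0.645), on a probe set near the threshold that lay under it on every Hlxb9 siRNA array. Socs5, of the same family, read 9.46, 9.37 and 9.34 after Hlxb9 siRNA, against 9.16, 9.11 and 8.99 after control siRNA, a difference of 0.30 ± 0.10 log2 (SE) (limma adjusted p = 0.645), with 0.06 on its other probe set. Pias2, a SUMO ligase that acts on STATs, differed by 0.54 log2, or 0.23 without control replicate 3, and by -0.18 and -0.13 on its others. Socs3, a feedback inhibitor at gp130, differed by -0.03 ± 0.15 log2 (SE).

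Adaptors and kinases of the IL-1 and TNF receptors were 10 higher and 10 lower, around a median of 0.02. Ikbkg, the regulatory subunit of the IkB kinase complex (NEMO), read 9.43, 9.40 and 9.26 log2 on the Hlxb9 siRNA arrays, against 8.95, 8.91 and 9.19 on the control siRNA arrays, without overlap, and differed by 0.34 ± 0.12 log2 (SE) (limma adjusted p = 0.645), with other probe sets from -0.05 to 0.25. Its catalytic partner Ikbkb differed by 0.21 log2, with other probe sets from -0.15 to 0.0085, Traf4 by 0.29 and Traf2, an adaptor of both TNF receptors, by 0.24, or 0.19 and 0.14 without control replicate 3. Of 8 NF-kB genes, 5 read higher and 3 read lower, with a median of 0.02. Nfkb2, the precursor of the p52 subunit, read 9.11, 9.06 and 9.22 after Hlxb9 siRNA, against 9.47, 9.46 and 9.55 after control siRNA. Its groups did not overlap, and the difference was -0.36 ± 0.10 log2 (SE) on an _x_at probe set, one whose probes can bind related sequences (limma adjusted p = 0.645), with -0.25 on its other probe set. Rela, the p65 subunit, differed by 0.18 log2 and Rel, just under background, by 0.18, or 0.11 and 0.33 without control replicate 3. Nfkbia, an inhibitor of NF-kB, differed by -0.13 log2, with other probe sets from -0.31 to -0.06.

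**Figure D4:**
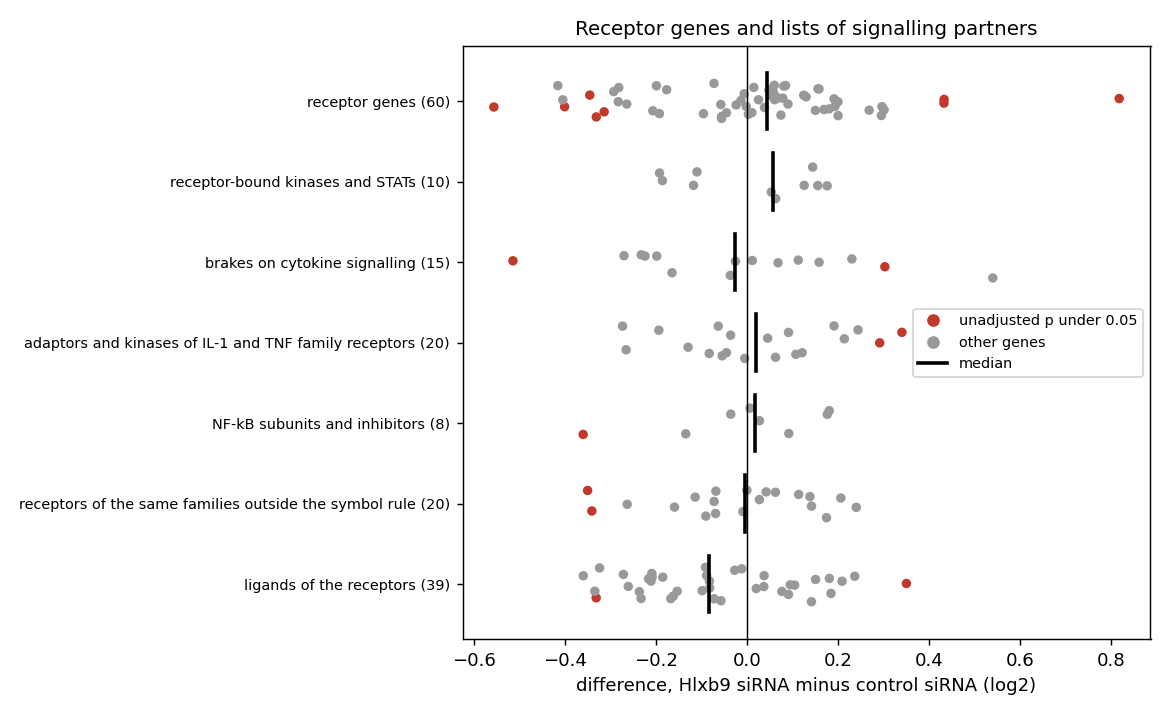
Differences, Hlxb9 siRNA minus control siRNA in log2 (x axis), of the 60 receptor genes and of 6 lists of related genes (rows, with the number measured). Points are genes, red where the unadjusted limma p was under 0.05, and bars are medians. Every median lies between -0.08 and 0.06, and no point passed after adjustment.

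Receptors of the same families whose symbols fall outside the rule numbered 20, of which 10 read higher and 10 read lower around a median of -0.0043, and 11 were above background, among them Lifr, Cd40, Ltbr and Ngfr, whereas Osmr, Lepr and Fas were not. Csf2rb2 and Epor, both below background, differed by -0.35 and -0.34 log2 (limma adjusted p = 0.653 for each), and Eda2r, a TNF receptor superfamily gene above background, by 0.24. Of 39 ligand genes, 11 were above background, and 14 read higher and 25 read lower, with a median of -0.08. Beside this, 50.6% of all genes read higher. Among all genes not above background, where most of the ligands lay, 37.2% did, around a median of -0.05. Il6, Il15, Ifng, Ifnb1 and Tnf were all below background, between 2.56 and 3.57 log2. Il1b was above it, at 6.20, 6.44 and 6.31 after Hlxb9 siRNA, against 6.06, 6.10 and 6.17 after control siRNA, and differed by 0.21 ± 0.11 log2 (SE) (limma adjusted p = 0.671). Lif, a gp130 ligand, differed by -0.33 log2 with groups that did not overlap (limma adjusted p = 0.645), Il11 by 0.35 below background (limma adjusted p = 0.652) and Il23a by -0.26 (limma adjusted p = 0.662).

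Control replicate 3 was the lowest of the 6 arrays for 14 of the 60 receptor genes and the highest for 15. Leaving it out moved a member's difference by at most 0.34 log2. The values that moved most were those of Il1r1, Il1r2, Tnfrsf21, Tnfrsf22, Tnfrsf23 and Il17rc, given above, while Il13ra1, Il15ra, Il17ra and Il10rb were as large or larger without it. Without that array 8 members had an unadjusted limma p under 0.05, beside 10.2% of all genes, 0 passed after adjustment, and the median of the 60 was 0.0063 log2.

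**Figure D5:**
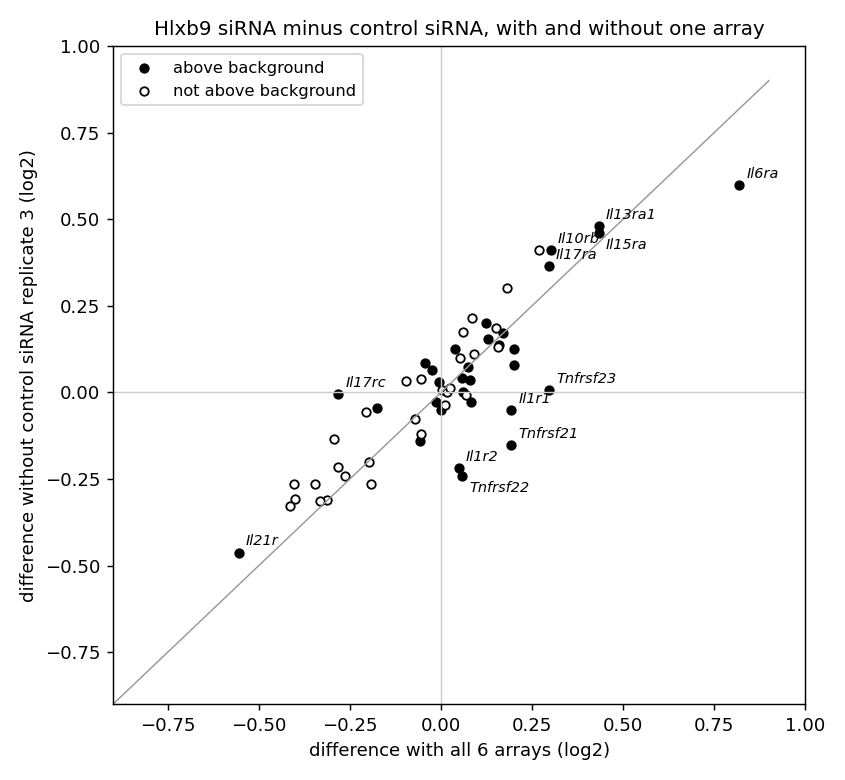
Difference of each receptor gene, Hlxb9 siRNA minus control siRNA in log2, with all 6 arrays (x axis) and without control replicate 3 (y axis), filled where above background. Points on the diagonal did not move. Tnfrsf22, Tnfrsf21, Tnfrsf23, Il1r2 and Il1r1 lie below it, Il17rc above it, and Il6ra goes to 0.60.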

How the data were processed

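Gene expression was measured on 6 Affymetrix arrays, 3 per group. The deposited values are log2 RMA signals (background correction, quantile normalization and probe set summary are the steps RMA is known for). The submitters' processing notes name Partek and RMA, with neither version nor settings. Precision here is limited by the number of arrays. From 45101 probe sets, 64 control probe sets were set aside. All 60 member symbols matched a RefSeq gene of GRCm38.p6 by Entrez identifier and 0 changed.

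Groups were compared with limma (version 3.58.1, R 4.3.3) on all 45037 probe sets, without covariates, two-sided, with Benjamini-Hochberg adjustment at 0.05, and errors are moderated standard errors. Arrays of equal number deviated together (r of 0.155, 0.165 and 0.202, against 0.072 at most for unequal numbers), so the replicate block, an alternative, is taken as a pairing, which comes from the values since the labels name no shared day. Errors, intervals and p-values in the Results are from the fit without this block, except where pairs are named. With the block the SE was smaller for some genes (Il21r 0.13 against 0.20 log2) and larger for others (Il10rb 0.16 against 0.15). The members and lists were chosen with earlier results of these data known. By rule, values were given on every array for members above background and those with an unadjusted p under 0.05, the 2 members nearest the threshold on each side were given, and differences for up to 3 genes per signalling list by p plus Jak1, Stat3, Socs3 and Traf2. Il10ra, Rel, Il1b, the marker genes given with differences and the further genes named as above or below background were chosen after their values were seen. Other alternatives were centring, repeated quantile normalization, an offset of 32, a filter on dim probe sets, a trend with robust prior, array weights, each array left out, and other probe sets per gene. Promoter windows are from RefSeq.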

Additional observations from a re-analysis of the deposited data

How the results depend on the processing

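The number of receptor genes past limma's adjusted p of 0.05 stayed 0 under every alternative except array weights, which give most weight to the arrays numbered 2 (4.46 for control and 2.91 for Hlxb9 siRNA, against 0.20 for control replicate 3). With them 1132 of 45037 probe sets passed, and 2.5% of all genes. So did 5 receptor genes (Il6ra 0.67, Il13ra1 0.49, Il15ra 0.61, Il21r -0.71 and Il10ra -0.63 log2) and 4 signalling genes (Ikbkg, Il11, Nfkb2 and Socs1). With the replicate block added 2323 probe sets, 12 receptor genes and 6 signalling genes passed, without a share of all genes to set beside them. Array weights without each array in turn, an alternative chosen after seeing the data, called 0 probe sets and 0 receptor genes in all 6 fits. Without adjustment 3430 probe sets lay under a p of 0.05. The replicate block alone called 0 (Il6ra limma adjusted p = 0.482) and changed no call. The 8 members at an unadjusted p of 0.05 became 18 with array weights, 19 with the block added, 3 without dim probe sets, which leaves the dim members out of the fit, and 2 to 13 without one array (2 without control replicate 2, 4 without Hlxb9 siRNA replicate 1 or 2, 13 without control replicate 1). Of these settings, a share of all genes is at hand only without control replicate 3 (10.2%, beside 8 members). These counts therefore say nothing particular to the receptors. The members' median of 0.04 log2 was -0.0017 with array weights, -0.0085 after centring, 0.0016 after repeated quantile normalization, and -0.0071 to 0.061 without one array. The count above background, 31, ranged from 28 to 34 over other thresholds and probe set rules. Direction was followed for 56 genes: members above background or with an unadjusted limma p under 0.05, and the genes taken from signalling lists by rule. Of these, 34 kept their direction under every alternative. Small differences changed sign: with array weights Tnfrsf21 -0.0028, Tnfrsf12a -0.032, Tnfrsf22 -0.13, Il1r2 -0.13, Il20rb 0.011, Tnfrsf13c 0.053, Tnfrsf4 0.082 and Socs3 0.12, and with the block added Il6st 0.018, Tnfrsf22 -0.074, Il1r2 -0.033, Tnfrsf13c 0.067, Tnfrsf4 0.061, Il17rd -0.018 and Socs3 0.086. Averaging a gene's probe sets gave Il6st 0.17, Il4ra -0.017, Ifngr2 -0.038, Tnfrsf11a 0.041, Ikbkb -0.020 and Socs3 0.0029, and the brightest plain _at probe set Pias2 -0.13 and Socs3 0.10. Centring gave Il1r2 -0.0035 and Il3ra -0.014, and repeated quantile normalization Il1r2 -0.0087, Il3ra -0.033 and Ifngr2 -0.0063. Leaving out single arrays moved Ifnar2 between -0.063 and 0.20, Il17rd between -0.0086 and 0.20, Il18rap between -0.16 and 0.20, Il1r1 between -0.051 and 0.39, Il1r2 between -0.22 and 0.22, Il1rn between -0.14 and 0.040, Il20rb between -0.15 and 0.065, Il3ra between -0.038 and 0.13, Il6st between -0.051 and 0.041, Jak1 between -0.030 and 0.22, Socs3 between -0.15 and 0.091, Tnfrsf11a between -0.068 and 0.036, Tnfrsf13c between -0.072 and 0.079, Tnfrsf21 between -0.15 and 0.42, Tnfrsf22 between -0.24 and 0.23, Tnfrsf4 between -0.13 and 0.085 and Tnfrsf9 between -0.028 and 0.14. The cause of these shifts was not tested.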
